A study of Rattus norvegicus with 4 samples.

Results

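Pcp4 encodes PEP-19, a small protein that binds calmodulin through an IQ motif, and it is described here together with the calmodulin genes Calm2 and Calm3 and the calmodulin-dependent kinase genes Camk1, Camk2a, Camk2b, Camk2d, Camk2g and Camk4. These 9 genes were taken from 8893 genes that could be named on the array, as those whose RefSeq accession belonged to a gene of this family. They were measured by 12 probes, of which 8 probes, for 7 of the 9 genes, were bright enough to be tested. The family was selected on measured values, the log2 differences between these same groups (MAX vector against empty vector), so the members' differences are given as a description, with no test. Expression was measured in the rat pheochromocytoma line PC12, which comes from a tumour of the adrenal cells that make catecholamines. This line is known to have no working MAX protein, with which MYC proteins pair in order to bind DNA. In the empty vector group the cells were nucleofected with a plasmid without insert, and in the MAX vector group with an expression plasmid coding for MAX. Both were selected with E418, as the labels spell it, and grown in the same medium with calf and horse serum. Each group was 1 transfected line, sampled at passages 8 and 13, and each sample was hybridised to a one-colour array (n = 2 arrays per group). Which replicate came from which passage, the promoter on the plasmid and the species of the MAX sequence are not given in the sources used here. All errors between replicates therefore come from passages of one line per group and not from independent transfections.

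Calmodulin is a calcium sensor: on binding calcium it changes shape and docks onto enzymes and channels, which it switches on or off. Calm2 and Calm3 encode the same protein from separate genes. CaM kinase I and CaM kinase IV are activated by calmodulin and by an upstream kinase, whereas the subunits of CaM kinase II form large rings that phosphorylate themselves and can stay active after calcium has fallen. PEP-19 binds calmodulin also at low calcium and speeds the exchange of calcium with it. In chromaffin cells calcium entry triggers the release of catecholamines, and CaM kinase II is known to phosphorylate tyrosine hydroxylase.

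Since MAX dimers bind the E-box CACGTG, the sequence upstream of the Pcp4 start site is shown for the gene with the largest difference. It was taken from RefSeq (build GRCr8, chr11:49269936-49270185, plus strand) and covers the 250 bases before the start. Capitals mark the single match in it to the looser E-box pattern CANNTG.

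Pcp4 promoter: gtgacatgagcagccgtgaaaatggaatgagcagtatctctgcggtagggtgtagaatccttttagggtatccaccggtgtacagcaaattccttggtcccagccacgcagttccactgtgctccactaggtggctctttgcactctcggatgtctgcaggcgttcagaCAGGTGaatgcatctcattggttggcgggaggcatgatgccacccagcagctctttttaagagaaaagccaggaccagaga

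The match begins 81 bases before the start. Promoter windows of 300 bases (250 before and 50 after the start) were found for 7 of the 9 members, and Calm2 and Calm3 had none. CACGTG, searched on both strands, was in 0 of these 7 windows and in 6.42% of 33469 windows of the same length. CANNTG, which reads the same on both strands and includes CACGTG, was in those of Pcp4, Camk1, Camk2a and Camk4 and in 72.1% of all windows. The cyclic AMP response element TGACGTCA, the site of CREB, which CaM kinase IV phosphorylates, was in 0 of the 7 and in 1.83% of all. A match describes the letters of a window, and the lack of one says nothing about binding elsewhere.

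Between 26377 and 29284 probes (64.3% to 71.4%) per array were well above background, with 0 saturated spots. Values are log2 processed signals minus the array's 75th percentile, which lay between 590.0 and 700.5 signal units, so a value of 0 stands at that percentile. A probe of Max itself was not well above background on any array (-8.36 and -8.07 with the empty vector, -7.61 and -7.94 with MAX). Its position relative to the plasmid's insert was not analysed here, and it therefore says nothing on the labels. Of 25356 genes tested, limma called 213 (0.840%) at an adjusted p of 0.05, of which 146 (0.576%) were higher with MAX and 67 (0.264%) lower, and the median log2 difference of all was -0.019. MAX vector replicate 1 lay alone on the second of 2 slides. Precision is limited by the number of arrays, which is 4.

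Pcp4 stood at processed signals of 231.4 and 228.2 on the empty vector arrays and at 1995 and 1719 on the MAX vector arrays. Relative to the 75th percentile these were -1.60 and -1.42 against 1.76 and 1.37 on the log2 scale. Both MAX vector arrays were thus far above both empty vector arrays, and all 4 were well above background. The group means were -1.51 ± 0.12 and 1.56 ± 0.28 (SD, n = 2 arrays each), a log2 difference of 3.07 ± 0.17 (SE) or 8.41-fold. The gaps between replicates were 0.18 and 0.39, against medians over all genes tested of 0.12 and 0.15. Of the genes tested, 57 had a larger positive difference, and 24 of these carried a symbol. On the 3 arrays of slide 1 the difference was 2.88, and with MAX vector replicate 2 left out in place of replicate 1 it was 3.27. It rests on 1 probe.

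**Figure D1:**
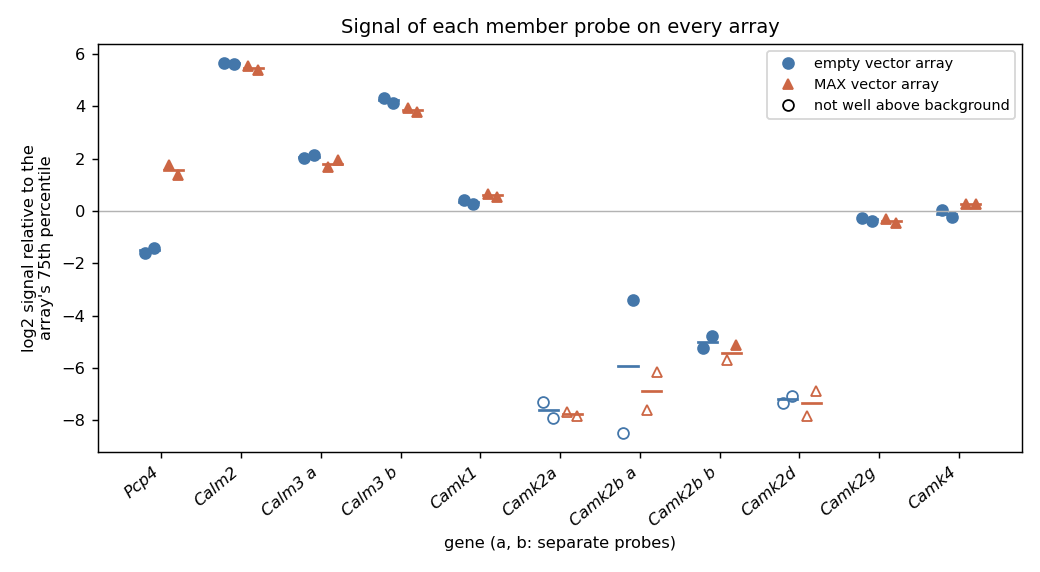
Log2 signal of 11 of the 12 member probes relative to each array's 75th percentile (vertical axis), with 1 point per array and bars at the group means; open symbols are not well above background. Pcp4 is near -1.5 on the empty vector arrays and near 1.6 on the MAX vector arrays, while the calmodulin, Camk1, Camk2g and Camk4 probes lie close together in both groups.

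Calm2 and Calm3, which encode the protein that PEP-19 binds, had slightly lower signals with MAX. Calm2 had log2 values of 5.67 and 5.63 with the empty vector against 5.54 and 5.39 with MAX. That is a difference of -0.19 ± 0.10 (SE), and the lower empty vector array and the higher MAX vector array lay closer together than the MAX vector replicates did (0.15 apart). The brighter Calm3 probe stood at 4.33 and 4.14 with the empty vector against 3.94 and 3.79 with MAX, a difference of -0.37 ± 0.12. The other Calm3 probe gave 2.03 and 2.12 against 1.66 and 1.95 (-0.27 ± 0.14). For both genes the MAX vector arrays lay below the empty vector arrays without overlap, as they did for 26.0% of all genes tested. Under 16 alternative settings the differences ranged from -0.26 to -0.12 for Calm2 and from -0.46 to -0.28 and -0.41 to -0.12 for the Calm3 probes. That all stayed negative was partly fixed in advance. Leaving out an array cannot change the sign of groups that do not overlap, and several settings left these values unchanged. Calmodulin genes have close copies in the genome, so which of them a probe measured is uncertain.

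Camk1 and Camk4 encode the single-chain kinases of the family. Camk1, the gene of CaM kinase I, had log2 values of 0.40 and 0.27 with the empty vector against 0.64 and 0.54 with MAX. The difference was 0.26 ± 0.10 (SE), and it was 0.08 when the background was corrected by normexp. Camk4, which encodes the largely nuclear CaM kinase IV, had 0.03 and -0.25 with the empty vector against 0.25 and 0.28 with MAX. Its difference of 0.38 ± 0.13 compares with a gap of 0.28 between the empty vector replicates, and leaving out either of these moved it to 0.52 or 0.24. For both genes the MAX vector arrays were higher without overlap, a pattern that 24.2% of all genes tested showed.

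Of the CaM kinase II subunit genes, Camk2g alone was detected clearly, with all 4 arrays well above background. It gave log2 values of -0.27 and -0.38 with the empty vector against -0.30 and -0.46 with MAX, so the groups overlapped and the difference was -0.06 ± 0.11 (SE). Its sign was not fixed, with -0.14 to 0.03 under the alternatives. Camk2a, which encodes the alpha subunit typical of forebrain neurons, was not well above background on any array (-7.30 and -7.92 against -7.67 and -7.85). Camk2d, which encodes the delta subunit typical of heart, was likewise not well above background (-7.35 and -7.06 against -7.82 and -6.89). No fold is given for these genes, and such signals do not show that the genes are silent, only that these probes did not detect them.

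Camk2b, which encodes the beta subunit that ties the enzyme to actin, had 3 probes, and all were dim. The probe that was tested gave -5.23 and -4.77 with the empty vector against -5.68 and -5.14 with MAX, and it was well above background on all arrays but MAX vector replicate 1. Its groups overlapped, with a difference of -0.41 ± 0.26 (SE) in which the MAX vector mean includes an array near background. A further probe was well above background on empty vector replicate 2 alone (-8.49 and -3.39, against -7.60 and -6.17). The last probe had an outlier flag on MAX vector replicate 2, where it stood at -3.12, and gave -6.05, -5.85 and -5.55 on the others. With flagged spots kept, this probe became the brightest of the gene and turned its difference to 1.61 ± 0.87. The sign thus depends on which probe stands for the gene, and the flagged spot changed that choice. On this probe MAX vector replicate 1 (-5.55), not well above background, also lay above both empty vector arrays.

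Of the 7 members tested, 1 passed the threshold over all genes, Pcp4, beside 0.840% of all genes, and nothing is read from this because the contrast chose the members. The other 6 lay within 2-fold, as did 96.6% of all genes tested, and their median was -0.12. In order of their differences the members ran from Camk2b and Calm3 over Calm2, Camk2g and Camk1 to Camk4 and Pcp4. The standard errors of those below Pcp4 were 0.10 to 0.26, and the differences between members were not tested.

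**Figure D2:**
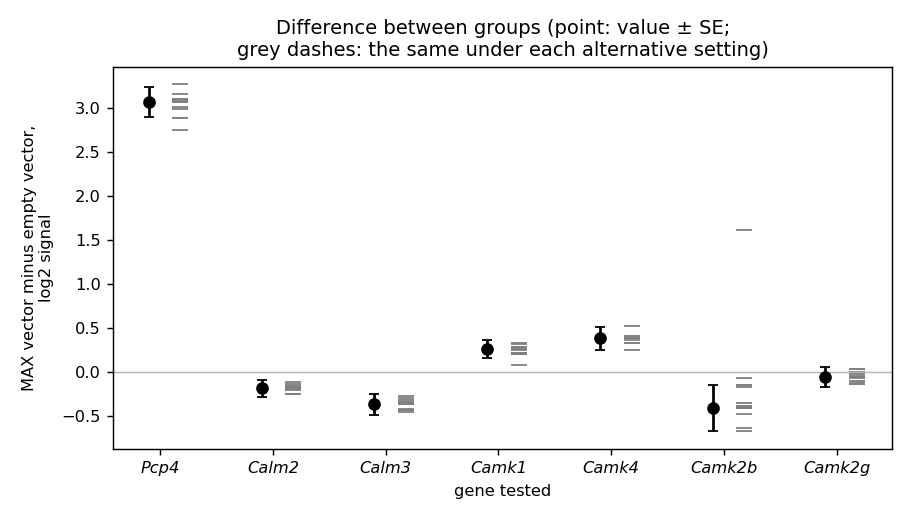
MAX vector minus empty vector log2 signal of the 7 members tested (black points, with SE as bars) and the same value under each alternative setting (grey dashes). Pcp4 lies between 2.75 and 3.27 under the alternatives, the other members lie between -0.68 and 0.52, and Camk2b has a single dash at 1.61 where flagged spots were kept.

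The genes whose pattern over the 4 arrays was most like that of Pcp4 were Npy, G0s2, Krt19, Fhit and Mmp10. Likeness was the Euclidean distance between mean-centred log2 values, over 5785 other genes with a symbol that all 4 arrays had well above background. The distances were 0.15, 0.25, 0.27, 0.30 and 0.37. Npy, which encodes neuropeptide Y, had -4.35 and -4.16 with the empty vector against -0.96 and -1.20 with MAX, a 9.05-fold difference. G0s2, which encodes an inhibitor of triglyceride breakdown, was 7.81-fold higher, and the keratin gene Krt19 was 9.11-fold higher. Fhit, a diadenosine triphosphate hydrolase gene, was 7.32-fold higher and the stromelysin gene Mmp10 7.90-fold higher. Both were dim with the empty vector, at -5.80 and -5.68 for Fhit and at -5.25 and -5.53 for Mmp10. The lowest signals well above background on these arrays were -6.53 and -6.07. With 2 arrays per group, this likeness is little more than a difference of similar size with small gaps between replicates.

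**Figure D3:**
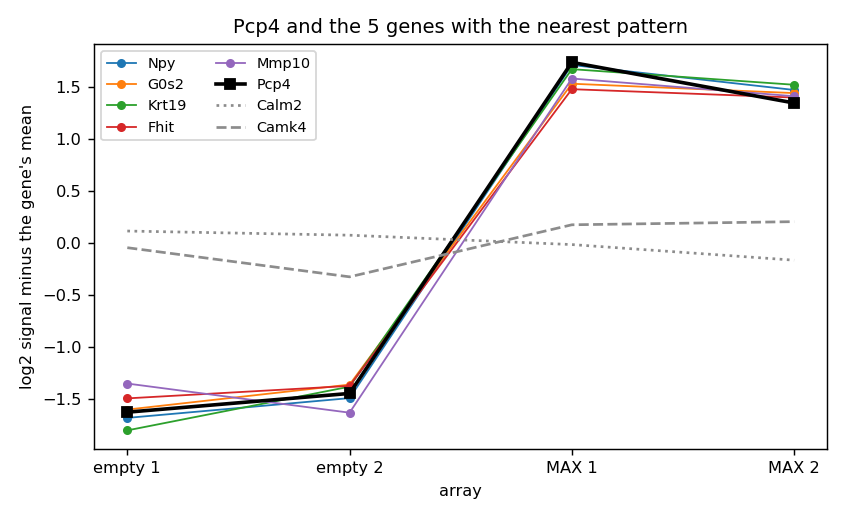
Log2 signal minus each gene's own mean (vertical axis) on the 4 arrays for Pcp4 (black squares), its 5 nearest genes (coloured points) and, for contrast, Calm2 and Camk4 (grey lines). Pcp4 and its nearest genes share a step of about 3 between the groups, whereas Calm2 and Camk4 stay near 0.

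Of 96 other genes of calcium and calmodulin signalling that were listed by role, 71 were named on the array and 55 could be tested. In limma 0 of the 55 passed in either direction, and 13 had an unadjusted p under 0.05, where 16.1% of all genes tested did. Their median log2 difference was 0.03, against -0.019 over all genes. On both MAX vector arrays 17 were higher and 16 lower than on both empty vector arrays, beside 24.2% and 26.0% of all genes. No gene of these lists came near the size of the Pcp4 difference, since the values ran from -1.53 to 1.03.

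Relatives of PEP-19 with an IQ motif or a similar hold on calmodulin gave no value like that of Pcp4. Nrgn, which encodes neurogranin, was dim, with -4.60 and -4.25 against -4.60 and -4.07 and a difference of 0.09 ± 0.24 (adjusted p = 0.883 in limma). Its sign turned to -0.09 without empty vector replicate 1 and to -0.18 without MAX vector replicate 2. Gap43, which encodes the growth cone protein neuromodulin, was not well above background on any array, and Pcp4l1 had no probe named here. Marcksl1, which encodes a calmodulin-binding actin regulator, had 0.23 ± 0.11 (adjusted p = 0.418). The genes of the CaM kinase II inhibitor proteins, Camk2n1 and Camk2n2, had 0.13 ± 0.09 and -0.24 ± 0.15 (adjusted p = 0.529 and 0.513).

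Among 11 other calmodulin-regulated kinase genes tested, 0 passed in limma, while an unadjusted p under 0.05 was reached by 4. The shares over all genes tested were 0.840% and 16.1%. Camkk1 and Camkk2 encode the kinases that activate CaM kinase I and IV. Camkk1 had -0.29 and -0.13 with the empty vector against 0.14 and 0.11 with MAX, a difference of 0.33 ± 0.10 (adjusted p = 0.264), and Camkk2 had -0.13 ± 0.11 (0.613). Camkv, which encodes a kinase-like protein without activity, had 0.63 ± 0.13 (adjusted p = 0.164), and Dapk2, a death-associated kinase gene, -0.40 ± 0.14 (0.298). Pnck, a CaM kinase I family gene, was well above background on both MAX vector arrays and on neither empty vector array. With each empty vector array raised to its lowest signal well above background, Pnck was 1.78-fold higher. Probes above that signal can still fail the call, so this is no strict bound. Pnck did not pass (adjusted p = 0.177). It entered the test only through the MAX vector arrays, so nothing is read from its p-values. Camkk1 was positive beside Camk1 and Camk4, whereas Camkk2 was negative and Camk1g, another CaM kinase I family gene, had 0.03 ± 0.12. None of the differences in this paragraph passed.

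Calcineurin is the phosphatase that calmodulin activates. Of 10 genes of calcineurin and its regulators, 0 passed in limma, while an unadjusted p under 0.05 was reached by 2. Over all genes tested, 0.840% passed and 16.1% reached this p. Ppp3ca, a catalytic subunit gene, had 2.97 and 2.91 against 3.23 and 3.28, a difference of 0.31 ± 0.09 (adjusted p = 0.24). Ppp3r1, which encodes the regulatory subunit, had 5.19 and 5.15 against 5.03 and 4.99 (-0.16 ± 0.09, adjusted p = 0.451). The other catalytic subunit genes, Ppp3cb and Ppp3cc, had -0.10 ± 0.09 and 0.05 ± 0.09 (adjusted p = 0.619 and 0.791 in limma), so the catalytic subunit genes had no common sign. Cabin1, which encodes a calcineurin inhibitor, had 0.39 ± 0.09 (adjusted p = 0.197) and Rcan3, another inhibitor gene, -0.25 ± 0.15 (0.497).

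Phosphatases that oppose CaM kinases are encoded by Ppm1e and Ppm1f, which had 0.12 ± 0.10 and 0.22 ± 0.13 (adjusted p = 0.588 and 0.471 in limma). Of 6 genes of second messenger enzymes 0 passed, and 2 had an unadjusted p under 0.05. Beside these counts stand 0.840% and 16.1% of all genes tested. Itpkb, an inositol trisphosphate kinase gene, had -0.64 ± 0.13 (adjusted p = 0.148) and its relative Itpkc 0.62 ± 0.25 (0.345). Nos3, which encodes endothelial nitric oxide synthase, had 0.52 ± 0.09 (adjusted p = 0.125). Atp2b1, the single plasma membrane calcium pump gene tested, had -0.29 ± 0.17 (adjusted p = 0.481). Downstream of the kinases, 6 genes of transcription factors and coactivators held 0 calls and 0 at an unadjusted p under 0.05. Mef2a and Mef2d, which encode factors released when class II deacetylases are phosphorylated, had 0.33 ± 0.12 and 0.26 ± 0.13 (adjusted p = 0.314 and 0.421). Crem, a relative of CREB, had 0.08 ± 0.12 (adjusted p = 0.772), and -0.02 without empty vector replicate 1.

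Other calcium-binding proteins with EF hands, the fold that calmodulin uses, had 13 genes tested, with 0 calls in limma, and 5 of them had an unadjusted p under 0.05. Of all genes tested, 0.840% were called and 16.1% had such an unadjusted p. Kcnip4, which encodes a calcium sensor of potassium channels, came nearest to the threshold of all 55 genes. It had -2.41 and -2.41 with the empty vector against -1.53 and -1.60 with MAX, a difference of 0.84 ± 0.09 (adjusted p = 0.0575). It passed with normexp (adjusted p = 0.0246) and among genes well above background on all 4 arrays (0.0282), and over the alternatives its adjusted p ran from 0.0246 to 0.433. S100a1 had 0.65 and 0.86 against 1.35 and 1.27 (0.56 ± 0.12, adjusted p = 0.162) and passed with normexp (adjusted p = 0.0423, within a range of 0.0423 to 0.643). Calb2, which encodes the buffer calretinin, had -0.61 ± 0.21 (adjusted p = 0.291).

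**Figure D4:**
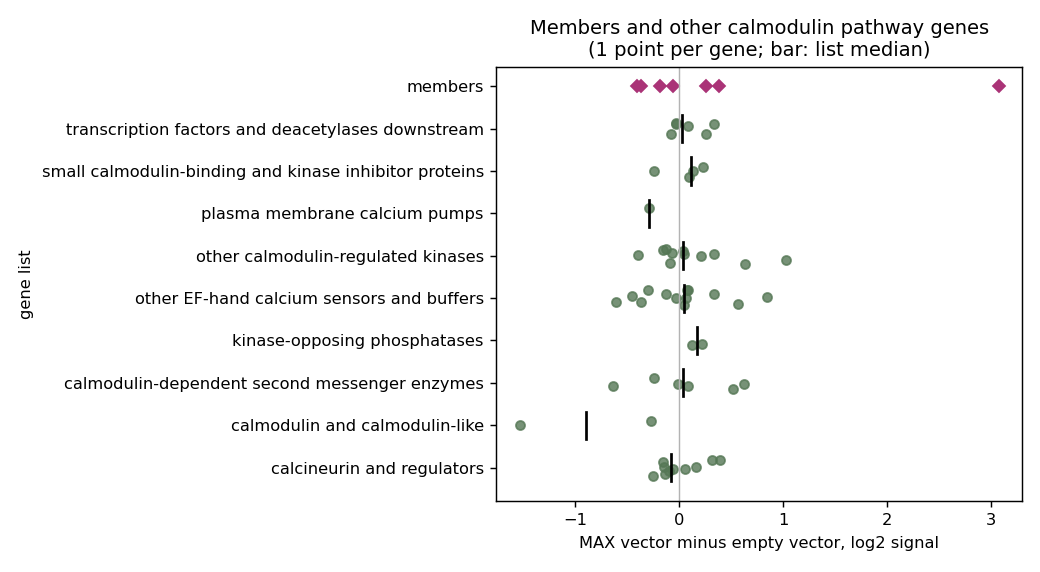
MAX vector minus empty vector log2 signal (horizontal axis) of the 55 other pathway genes tested, by list (green points, with black bars at the list medians), and of the 7 members (diamonds). The pathway genes lie between -1.53 and 1.03, and the Pcp4 diamond at 3.07 stands apart from them.

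Markers of the labelled cell type were present in part. Of 11 chromaffin genes tested, Th (4.42-fold higher, adjusted p = 0.0203 in limma) and Ddc (2.12-fold lower, adjusted p = 0.0391) passed, beside 0.840% of all genes. All 4 arrays had both well above background. Their calls and that of Krt19 below were lost without either empty vector replicate (adjusted p of 0.212 to 0.383) and without MAX vector replicate 1 (0.0694 to 0.109), and also with no filter on dim probes (0.109 to 0.16). Without MAX vector replicate 2 those of Ddc (0.0654) and Krt19 (0.0527) were lost as well, while their log2 values moved by less than 1.5 times. Chga and Chgb were dim but above background, while Dbh was well above background on both empty vector arrays and on a single MAX vector array. The summed linear signal of the chromaffin markers, in units of the 75th percentile, was 29.6 and 29.8 with the empty vector against 16.5 and 16.6 with MAX. Most of this sum came from Ddc and from Prph, the gene of the neuronal filament peripherin (-0.92 ± 0.09 on the log2 scale, adjusted p = 0.0521 in limma), and the median log2 difference of the 11 was -0.35. Of the markers of other cell types, Krt19 alone passed. The sum of the 7 epithelial markers was at most 10.9 on the empty vector arrays and at least 18.6 on the MAX vector arrays, and all 7 differences were positive. The sum of the 6 macrophage or leukocyte markers named was 4.86 and 5.60 against 9.10 and 8.83, with 0 of 4 tested passing and with Aif1 and Itgam not well above background on any array. Nearly all of that sum was Cd14 (0.82 ± 0.12, adjusted p = 0.1 in limma), while the groups overlapped for Cd68 and Csf1r. Lyz2 was dim, with -6.34 and -5.99 against -4.83 and -4.85 and no overlap. Its difference was 1.32 ± 0.15 (adjusted p = 0.0674 in limma). The endothelial sum, of Kdr and Pecam1, was 0.0265 and 0.0280 against 0.0762 and 0.110, and Pecam1 was not above background. Fibroblast markers summed to 131 and 145 against 138 and 147, almost wholly from Col3a1, with 0 of 5 passing. Among the rest Lum had -1.19 ± 0.27, Thy1 -0.62 ± 0.11 and Dcn 0.75 ± 0.13 (adjusted p = 0.183, 0.134 and 0.126 in limma), with groups that did not overlap. The part of these cell types in the Pcp4 difference was not tested, and in bulk RNA a change in the makeup of the culture and a change per cell cannot be told apart.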

How the data were processed

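The deposited scanner files hold spot intensity on 1 Cy3 channel per array, written by Agilent Feature Extraction 10.7.3.1 with build rn4, per the file headers (10.7 in the submitters' processing notes). Processed signals are background-subtracted and detrended within the array, per the file headers. The authors' deposited value table holds log2 values. Differences between its columns matched the scanner values used here (Pearson r = 1), and each probe's baseline in it stays unknown, with column medians of -0.033, -0.011, -0.005 and -0.006. Control spots and spots with an outlier flag (89 to 140 per array) were left out, which lost 89 probes. Log2 processed signals were averaged over a probe's spots and set relative to the 75th percentile of their array. Of 41012 probes, 10759 (26.2%) were named through RefSeq accessions (gene table GRCr8), which differs from the build of the files; the coordinates given for the Pcp4 promoter sequence are those of GRCr8 and locate no probe. The test took 28564 probes that 2 or more of the 4 arrays had well above background, with the brightest probe per gene (25356 genes), by limma 3.58.1 in R 4.3.3 with Benjamini-Hochberg adjustment at 0.05 and 3.94 total degrees of freedom.

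Members and gene lists were chosen with earlier results of these data known. Named genes were all members, pathway genes that passed, up to 3 per list with the largest difference among those above background on every array, close relatives of the members, and the 5 genes nearest to Pcp4; Pnck was added later, with its values known. On simulated data for this comparison (25356 genes, 200 of them changed), the fit found 5.6% of 2-fold and 72.8% of 4-fold changes, and 5.06% of its calls were false. The simulated noise was independent between arrays and held no slide or passage effect. The share of false calls in the real data can therefore differ from this. The same-numbered arrays' deviations correlated at -0.02 over genes, which gave no sign that the replicate numbers pair the samples. MAX vector replicate 1 lay alone on its slide, so its deviation mixes slide and passage. This value therefore cannot decide whether same-numbered arrays share a passage.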

Additional observations from a re-analysis of the deposited data

How the results depend on the processing

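The Pcp4 difference kept its direction under 16 alternatives. Several of these could not turn it, since its groups did not overlap and it rests on 1 unflagged probe. The slide block is the same fit as that without MAX vector replicate 1. Normexp adds 50 units to every signal and was chosen after seeing the data because the files lack the column first planned (that version was not run). The difference was 2.75 with normexp and 2.88 to 3.27 under the others. With one array left out it ran from 2.88 to 3.27. With a replicate block it was 3.07, and 0 genes were called higher and 0 lower in limma (3885 at an unadjusted p under 0.05). The block lowered the total degrees of freedom from 3.94 to 2.98, and whether the numbers pair the samples is not known. Over all genes, 146 higher and 67 lower became 429 and 365 with normexp, 341 and 200 with median scaling, and 312 and 203 among genes above background on all 4 arrays. With no filter on dim probes they became 0 and 0 (4033 at an unadjusted p under 0.05), and with the slide as a block 8 and 0. Without scaling, also added later, 103 were lower. With one array left out they ran from 0 to 71 and from 0 to 73: 0 and 0 without either empty vector replicate (1963 and 2456 at an unadjusted p under 0.05), then 8 and 0 when MAX vector replicate 1 was dropped, and 71 and 73 when replicate 2 was. The pathway count of 0 higher became 2 with normexp (Kcnip4 and S100a1) and 1 with the filter on all 4 arrays (Kcnip4). Of the named pathway genes' values under the alternatives, 394 kept their direction and side of the threshold, and 3 reversed. These genes did not pass in the main fit, and under several settings 0 genes passed at all. Other settings left the values almost unchanged, so much of this count was fixed in advance. With one array left out Crem ran from -0.02 (without empty vector replicate 1) to 0.18, and Nrgn from -0.18 (without MAX vector replicate 2; -0.09 without empty vector replicate 1) to 0.36. Camk2b turned to 1.61 with flagged spots kept. The causes were not tested. With 4 arrays, changes of 2-fold or less would mostly be missed, and probes near background, such as those of Camk2a, Camk2b and Camk2d, carry little information.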
